A study of Mus musculus with 17 samples.

Results

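The genes described here are the 10 listed members of the immunoproteasome and MHC class I peptide-loading machinery: Psmb8, Psmb9 and Psmb10 (immunoproteasome catalytic subunits), Psme1 and Psme2 (the PA28 activator), Tap1 and Tap2 (the peptide transporter), Tapbp (tapasin), B2m (the class I light chain) and Nlrc5 (a transcriptional activator of class I genes). They were chosen by name from the pathway, with earlier results of these data known. All 10 were found among the 53679 genes of the count tables and among the 16246 genes tested. RNA of CD8+ T cells from C57BL/6 mice was sequenced; the cells were WT (wild type) or KO (knockout) for CBLB, here by its mouse symbol Cblb, the gene of the E3 ubiquitin ligase Cbl-b. The series is about excess interferon-gamma from cells that lack this ligase. The 6 groups were WT unstimulated, KO unstimulated, WT with anti-CD3, KO with anti-CD3, WT with anti-CD3 and anti-CD28, and KO with anti-CD3 and anti-CD28, with stimulation for 12 h. Anti-CD3 engages the T cell receptor complex, and anti-CD28 adds a costimulatory signal; the last pair of groups is called both antibodies below. Each group held 3 libraries, except WT with both antibodies, which held 2 (replicates 2 and 3). The labels say neither which part of Cblb was removed nor whether it was lost in all cells or only in some.

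MHC class I molecules show short peptides on the cell surface to CD8+ T cells. In most cells the proteasome makes these peptides with constitutive catalytic subunits (Psmb5, Psmb6 and Psmb7), and lymphocytes and cells exposed to interferon-gamma use the immunoproteasome subunits Psmb8, Psmb9 and Psmb10 in their place. PA28 caps the proteasome, TAP carries the peptides into the endoplasmic reticulum, tapasin holds the class I molecule at TAP while a peptide binds, and B2m pairs with every class I heavy chain. Interferon-gamma acts in part through IRF1, and NLRC5 works with RFX, CREB and NF-Y factors at class I promoters.

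Of the members, 4 lie next to each other within 34.3 kb of the MHC on mouse chromosome 17 (chr17:34181987-34216321, GRCm38), in the order Psmb9, Tap1, Psmb8 and Tap2, and Tapbp lies on the same chromosome at chr17:33915899-33929292. Psme1 (chr14:55578123-55581529) and Psme2 (chr14:55587441-55591113) are 5.91 kb apart on chromosome 14. Psmb10 (chr8:105935735-105938444) and Nlrc5 (chr8:94434356-94527272) are on chromosome 8, and B2m (chr2:122147686-122153083) is on chromosome 2. Psmb9 and Tap1 are read from opposite strands and share a promoter region; their annotated genes overlap by 212 bases, and how strand was set in the counting is not given in the sources used here, so reads from that overlap cannot be assigned with certainty. The same holds for the overlaps of Psmb8, Psmb10, Psme1, Tap2, Tapbp, B2m and Nlrc5 with neighbouring genes. Of the 10 members, 9 have exons of at least 52% GC, and B2m has 41.2%.

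Promoter windows in RefSeq (GRCm38.p6, 250 bases before to 50 after each start site) were found for 8 of the 10 members. Printed here are the bases before the start site of Tap1, which is also the region in front of Psmb9, and of B2m, the member whose level behaved least like the others. Capitals mark a CCAAT box (CCAAT, bound by NF-Y), an X2-type site (TGACG, the CREB and ATF core) and, in B2m, an interferon response element core (GAAA, any 2 bases, GAAA), each searched on both strands, with no overlap among the capital stretches.
Tap1, chr17:34187306-34187555, plus strand: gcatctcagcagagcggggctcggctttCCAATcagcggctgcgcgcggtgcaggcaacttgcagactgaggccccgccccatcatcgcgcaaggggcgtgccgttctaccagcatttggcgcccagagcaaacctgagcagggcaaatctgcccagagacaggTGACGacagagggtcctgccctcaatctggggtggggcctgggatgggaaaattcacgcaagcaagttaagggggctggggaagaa
B2m, chr2:122147437-122147686, plus strand: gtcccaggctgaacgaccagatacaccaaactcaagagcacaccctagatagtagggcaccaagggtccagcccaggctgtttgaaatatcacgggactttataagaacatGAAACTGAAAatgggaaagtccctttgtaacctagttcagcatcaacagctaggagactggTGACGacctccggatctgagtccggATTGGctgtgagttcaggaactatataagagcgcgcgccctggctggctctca
The windows of Tap1 and Psmb9 share 275 of their 300 bases, so both genes have the same CCAAT box and the same X2-type site. A CCAAT box was found in 4 of the 8 members with a window (Psmb9, Tap1, Tapbp and B2m), and in 37.4% of all 32817 promoter windows. An X2-type site was found in 4 of 8 (Psmb9, Tap1, Psme2 and B2m) against 20.8% of all windows, and the interferon response element core in 2 (B2m and Psme1) against 3.43%. The gamma-activated site letters TTCNNNGAA, searched in the same way, were found in 1 (Psmb8) against 8.29%. A match says only that the letters are there.

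Total counts were 16635826 to 38269033 per library, and 160059285 in KO unstimulated replicate 2. Cblb, the targeted gene, was at 140 to 160 CPM (the count relative to the library's scaled total) in the 3 WT unstimulated libraries and 63.9 to 68.8 in the KO ones, at 180.4 to 190.1 against 78.4 to 83.8 with anti-CD3, and at 178 and 179 against 80.2 to 95.9 with both antibodies, so Cblb was lower in every KO library, with reads still present. The 8 CD8 T cell genes checked (Cd3d, Cd8a and others) summed to 2096 to 4236 CPM per library. Markers of CD4 T, B, NK, and myeloid and dendritic cells (4, 6, 4 and 10 genes) summed to at most 4.06, 34.6, 5.09 and 13.4 CPM. Since the labels do not say whether replicates are separate animals, the p-values reflect only how much these samples vary, which may be technical. In bulk RNA, fewer cells of a type and less RNA per cell cannot be told apart.

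The libraries also stood apart in a trend with GC content, which matters here because 9 of the 10 members are GC-rich. As its measure, the median log2 deviation of the GC-poor genes (up to 40% GC) was subtracted from that of the GC-rich genes (56% or more) in each library. It was -0.75, -0.34 and -0.31 in the WT unstimulated libraries and 0.50, 1.15 and 0.16 in the KO ones, so these groups did not overlap. With anti-CD3 it was -0.41 to -0.11 in WT and 0.10 to 0.24 in KO. With both antibodies it was 0.57 and 0.52 in WT, and 0.36, -0.34 and -1.15 in KO. Every comparison was therefore also fitted with a correction that removes each library's smooth trend of level on GC content; the plots of genotype and stimulation differences show both values for every member, and the text gives the corrected value of most differences it names. Each difference is a log2 fold change with its SE, tested in edgeR by quasi-likelihood with p adjusted over the 16246 genes, and is called where that p is under 0.05.

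B2m was by far the most abundant member. Per kilobase of exon, WT unstimulated cells had 2585 ± 76.8 CPM of B2m (SD, n = 3), followed by Psme1 at 93.6 ± 3.93 and Psme2 at 82.8 ± 5.18. Psmb8, Nlrc5 and Tapbp came next at 53.8, 52.5 and 50.7 CPM per kilobase, with overlapping ranges, so the order of these 3 is not resolved. Tap1 followed at 33.4, and Psmb10, Psmb9 and Tap2 were lowest at 20.3, 18.4 and 17.3, again with overlapping ranges. The RNAs of the TAP subunits were thus unequal per kilobase in this group, with no overlap between Tap1 and Tap2. Length here is that of all annotated exons of a gene together, 2209 bases for Psme1, 1764 for Psme2 and 3381 for Psmb8. Their longest transcripts have 1986, 962 and 1907 bases. The order of Psme1 and Psme2 and the place of Psmb8 therefore depend on the length used.

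**Figure D1:**
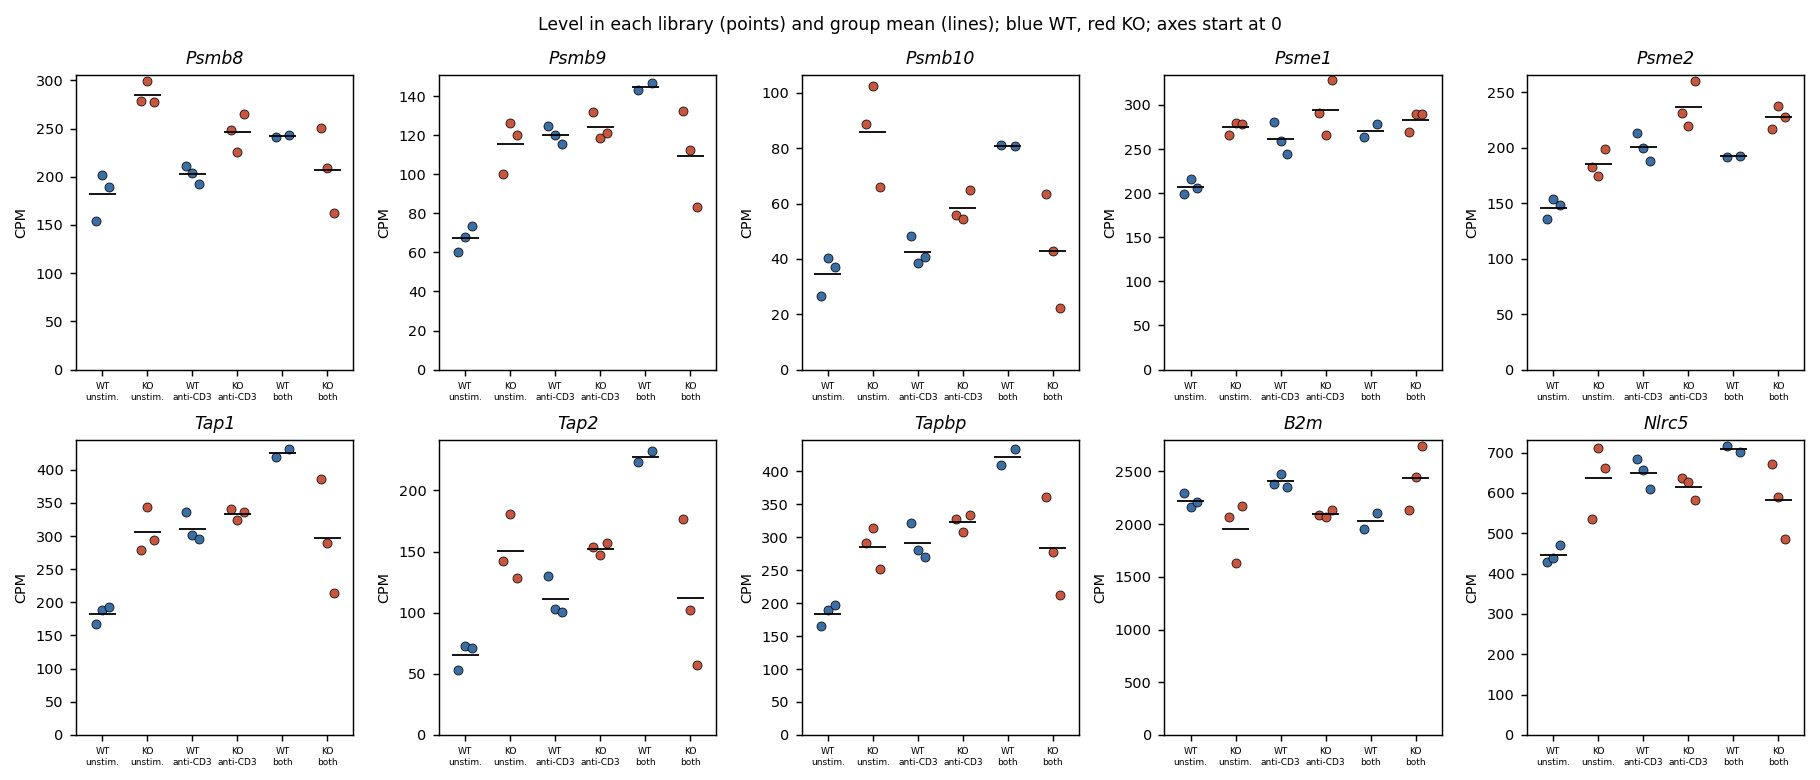
Level of each member (CPM, linear axis from 0) in every library (points) and the group mean (lines), WT in blue and KO in red. In the unstimulated state the KO points lie above the WT points for every member except B2m, and with both antibodies the 3 KO points are widely spread for Psmb10, Tap1, Tap2 and Tapbp.

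The first comparison set KO against WT cells without stimulation. In these libraries 9 of the 10 members were higher in KO cells and only B2m was not called, against 15.3% of all genes tested called higher and 10.1% called lower. The median difference of the members was 0.64, against -0.011 over all genes. After the GC correction 5 of the 9 calls passed (Psmb8, Psmb9, Psmb10, Tap1 and Tap2; 3.43% of genes were called higher and 3.02% lower), so the catalytic subunits and the transporter were called either way, and PA28, tapasin and Nlrc5 were not. In the same libraries the summed B cell markers were at 21.3 to 23.7 CPM in WT and 28.4 to 34.6 in KO. The myeloid and dendritic cell markers were at 8.54 to 10.4 and 10.6 to 13.4, and 6 MHC class II genes at 18.4 to 22.9 and 27.4 to 48.9. Of the 6 B cell, 10 myeloid and dendritic and 6 class II genes, 2, 7 and 2 were below 1 CPM in every WT library. In the KO libraries these counts were 1, 8 and 1. No gene of these lists was at 0 in all 17 libraries of the series, and their part in the result was not tested.

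Among the catalytic subunits, Psmb8 (the beta5i chymotrypsin-like subunit) was at 155, 201 and 189.8 CPM in the WT and 279, 299 and 277 CPM in the KO unstimulated libraries. All 3 KO values lay above all 3 WT values, and the difference was 0.65 ± 0.13 (adjusted p = 0.00686), or 0.42 ± 0.08 with the GC correction (0.00627). Psmb9 (beta1i) was at 60.2, 68.1 and 73.3 CPM in WT and 99.9, 126 and 120.1 CPM in KO. Again no KO library reached down to WT, with 0.78 ± 0.13 (adjusted p = 0.00466), or 0.44 ± 0.08 corrected (0.00429). Psmb10 (beta2i) had 26.7, 40.3 and 37.0 CPM in WT and 88.9, 103 and 66.2 CPM in KO, which was the largest fold difference of the 10 members. Its difference of 1.32 ± 0.28 (adjusted p = 0.00906) became 0.77 ± 0.14 with the correction (0.00714), still without overlap between the corrected groups.

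The 2 PA28 subunits moved less. Psme1 (PA28 alpha) was at 199, 216 and 206 CPM in WT and 266, 279 and 278 CPM in KO, a difference of 0.41 ± 0.085 (adjusted p = 0.00745). With the correction it was -0.098 ± 0.15 (0.753), so the call ended and the sign turned. Psme2 (PA28 beta) was at 136, 154 and 148 CPM in WT and 183, 174 and 199 CPM in KO. The groups did not overlap, with 0.34 ± 0.086 (adjusted p = 0.0125), and the corrected value was 0.092 ± 0.09 (0.598).

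Of the transporter genes, Tap1 was at 167, 189 and 193 CPM in WT and 279, 344 and 294 CPM in KO, a difference of 0.74 ± 0.15 (adjusted p = 0.00686). The correction left 0.27 ± 0.065 (0.0199). Tap2 was at 53.0, 72.5 and 71.0 CPM in WT and 142, 181 and 128 CPM in KO, with 1.20 ± 0.29 (adjusted p = 0.0123) and 0.63 ± 0.14 after correction (0.0186). Both TAP genes were thus higher in every KO than in every WT library, and Tap2 by the larger factor. Tapbp, which encodes tapasin, was at 165, 190.3 and 197 CPM in WT and 291, 314 and 251 CPM in KO. Its difference of 0.63 ± 0.14 (adjusted p = 0.0094) was 0.043 ± 0.059 with the correction (0.723) and was no longer called.

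B2m, the light chain and the only member of low GC content, was at 2296, 2167 and 2206 CPM in WT and 2070.2, 1629 and 2177 CPM in KO. The groups overlapped, and the difference of -0.18 ± 0.11 was not called (adjusted p = 0.213; 0.12 ± 0.064 and 0.263 corrected). Nlrc5, the class I transactivator, was at 428, 439 and 471 CPM in WT and 536, 711 and 661 CPM in KO, a difference of 0.51 ± 0.11 (adjusted p = 0.00895). With the correction it was 0.26 ± 0.081 and just missed the threshold (0.0562). Single libraries also decided some of these calls: without WT unstimulated replicate 1 the members called higher were Psmb8, Psmb9, Psme1 and Tap1 (4), and without KO unstimulated replicate 2 they were these and Psme2 (5). Psmb8, Psmb9 and Tap1 were called under each of the 27 alternatives run.

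With anti-CD3, levels of these genes in KO and WT cells lay closer together. None of the 10 members was called between KO and WT, against 10.5% of all genes tested called higher and 4.8% lower. At an unadjusted p under 0.05 there were 2 members higher and 0 lower, against 3067 and 1767 of the 16246 genes tested. DESeq2 called 0 members, and limma voom 4 higher and 1 lower, with their shares of all genes not given here. The median of the members was 0.16, against 0.037 over all genes. In the same libraries Ifng was at 97.4, 85.5 and 87.7 CPM in WT and 328, 439 and 572 CPM in KO, a difference of 2.31 ± 0.30 (adjusted p = 0.000313; 2.36 ± 0.29 and 0.000226 corrected). Ifng RNA was thus higher in every KO library. Any link between Ifng and the levels of the members was not tested.

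Although none was called, Psme2, Psmb8, Psmb10 and Tap2 lay higher and B2m lower in every KO than in every WT library with anti-CD3. The share of all genes that separate in this way is not given here, so this only describes levels. Psme2 came nearest to a call, at 213, 199.6 and 188 CPM in WT and 232, 220.1 and 259.9 CPM in KO (0.24 ± 0.086, adjusted p = 0.0643). Psmb8 was at 211, 204 and 193 CPM in WT and 248, 225 and 265 CPM in KO (0.28 ± 0.13, 0.146). Psmb10 was at 48.2, 38.5 and 40.6 CPM in WT and 55.7, 54.5 and 64.8 CPM in KO (0.46 ± 0.28, 0.283). These 2 catalytic subunits and PA28 beta thus lay higher in every KO library, and so did the transporter subunit Tap2, at 130.1, 103 and 101 CPM in WT and 153, 147 and 157 CPM in KO (0.45 ± 0.28, 0.304). B2m was the member with all KO libraries lower, at 2384, 2479 and 2354 CPM in WT and 2086, 2063 and 2137 CPM in KO (-0.20 ± 0.11, 0.226). With the GC correction these 5 differences were 0.056, 0.11, 0.15, 0.12 and -0.12 (adjusted p 0.192 to 0.711), and of their corrected levels only those of B2m stayed without overlap.

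The other 5 members overlapped between the genotypes with anti-CD3. Nlrc5 was at 683, 658 and 611 CPM in WT and 637, 627 and 582 CPM in KO, a difference of -0.081 ± 0.11 (adjusted p = 0.686). Tap1 was at 337, 301 and 295 CPM in WT and 341, 324 and 336 CPM in KO (0.10 ± 0.15, 0.69). Psmb9 was at 125, 120.3 and 115 CPM in WT and 132, 119 and 121 CPM in KO (0.046 ± 0.13, 0.853), and Psme1 and Tapbp had 0.17 ± 0.085 and 0.15 ± 0.14 (0.183 and 0.517). With the GC correction 2 members were called lower in KO (against 11.6% of genes lower and 10.8% higher), Tapbp at -0.19 ± 0.059 (0.0223) and Nlrc5 at -0.26 ± 0.081 (0.0252), and none higher. Tap1, Psmb9 and Psme1 were at -0.17, -0.17 and -0.13 corrected (0.067, 0.133 and 0.586), so the sign of these 3 and of Tapbp turned. Fitted by themselves, the 6 libraries with anti-CD3 gave 4 members called higher and 1 lower, and 1 and 2 were called higher without KO replicate 1 and 3 of the both-antibody group. The shares of all genes called in these fits are not given here. MHC class II genes summed to at most 31.9 CPM in WT and to 38.7 to 41.5 in KO with anti-CD3, and B cell markers to 7.29 to 9.96 and 8.84 to 10.7; their part was not tested.

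With both antibodies the called differences pointed the other way: Tap1, Tap2 and Tapbp were lower in KO cells and no member was called higher, against 6.3% of all genes called lower and 9.84% higher. Tap2 was at 223 and 232 CPM in the 2 WT libraries and 177, 102 and 57.1 CPM in the 3 KO libraries. No KO value reached the WT ones, the KO libraries were spread widely, and the difference was -1.02 ± 0.31 (adjusted p = 0.0396). Tap1 was at 419 and 432 CPM in WT and 385, 289 and 215 CPM in KO (-0.52 ± 0.16, adjusted p = 0.0382). Tapbp was at 410.3 and 435 CPM in WT and 361, 278 and 212 CPM in KO (-0.57 ± 0.16, adjusted p = 0.0239). In all 3 genes the order of the KO libraries was that of their GC trend, from replicate 1 (0.36) to replicate 3 (-1.15).

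Psmb10 showed the same spread, at 81.3 and 80.7 CPM in WT and 63.6, 42.9 and 22.1 CPM in KO, and missed the threshold (-0.92 ± 0.30, adjusted p = 0.0543). With the GC correction the members called lower were Psmb10 (-0.57 ± 0.16, 0.019) and Tap2 (-0.67 ± 0.15, 0.00846), against 7.69% of genes called lower and 9.95% higher. Tap1 and Tapbp lost their calls (-0.20 ± 0.073 and -0.13 ± 0.065, adjusted p = 0.0633 and 0.172), and Psme2 was called higher (0.39 ± 0.10, 0.0113). B2m, at 1951 and 2105 CPM in WT and 2130.3, 2445 and 2745 CPM in KO, ran in the opposite order among the KO libraries and was not called (0.27 ± 0.12, adjusted p = 0.13). The number of members called lower here depended on single libraries: it was 0 without either WT library or without KO replicate 2 or 3, 7 without KO replicate 1 (with 2 called higher), and 1 without any of 4 libraries of the anti-CD3 groups (WT replicate 2 or 3, KO replicate 1 or 2).

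**Figure D2:**
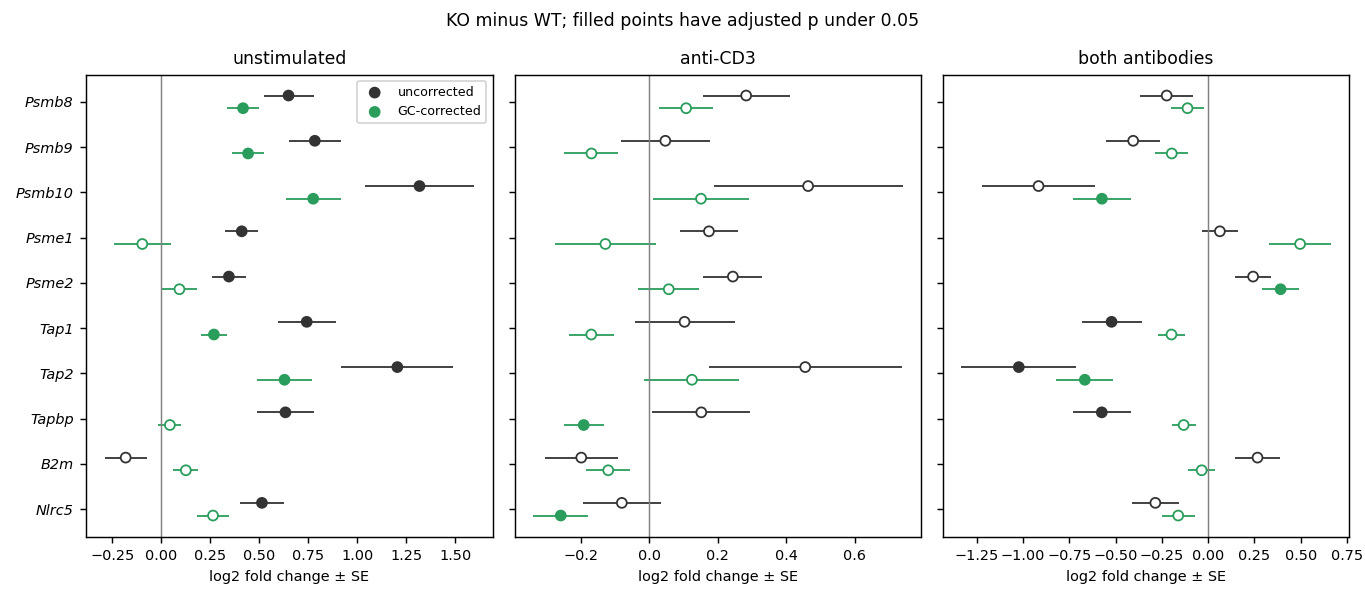
KO minus WT log2 fold change ± SE (x axes) of the 10 members in each state, uncorrected (black) and GC-corrected (green), with filled points where the adjusted p was under 0.05. In unstimulated cells 9 black and 5 green points are filled on the right, with anti-CD3 no black point is filled, and with both antibodies Tap1, Tap2 and Tapbp are filled on the left.

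The next comparison set stimulated against unstimulated cells within each genotype. The labels give 12 h for the stimulated libraries and no time for the unstimulated ones. An effect of the antibodies and one of time in culture therefore cannot be told apart here. The responses to the 2 stimuli share the same unstimulated libraries, and those libraries also enter the genotype comparison above. WT cells with anti-CD3 had none of the 10 members called lower than unstimulated cells and 6 called higher (against 11.3% of genes higher and 13.1% lower): Psmb9, Psme1, Psme2, Tap1, Tapbp and Nlrc5. KO cells with anti-CD3 had 1 called higher, Psme2 (against 19.6% higher and 17.3% lower). The median response of the members was 0.50 in WT and 0.10 in KO, with the medians over all genes at -0.0037 and 0.024.

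In WT cells Psmb9 had the largest called response, from 67.2 ± 6.62 to 120.2 ± 4.78 CPM (SD, n = 3 each; 0.84 ± 0.13, adjusted p = 0.000154). Its promoter neighbour Tap1 went from 183 ± 13.7 to 311 ± 22.7 CPM (0.77 ± 0.15, adjusted p = 0.000922). These 2 genes share the promoter region printed above. Tapbp rose from 184 ± 16.8 to 291 ± 27.3 CPM (0.66 ± 0.14, adjusted p = 0.0025), and Nlrc5 from 446 ± 22.4 to 651 ± 36.8 CPM (0.54 ± 0.11, adjusted p = 0.00192). The PA28 genes rose less, Psme1 by 0.34 ± 0.085 (adjusted p = 0.0074) and Psme2 by 0.46 ± 0.086 (0.000781). After GC correction (15.9% of genes called higher, 18.2% lower) Psmb9, Psme2, Tap1, Tapbp and Nlrc5 kept their calls (0.80, 0.43, 0.73, 0.60 and 0.52), Psme1 lost its own (0.30 ± 0.15, 0.138) and Tap2 gained one (0.72 ± 0.14, 0.00102; 0.77 ± 0.28 and 0.0659 uncorrected).

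The other catalytic subunits did not follow Psmb9. Psmb8 was at 211, 204 and 193 CPM in WT with anti-CD3, overlapping the unstimulated range (0.16 ± 0.13, adjusted p = 0.417), and Psmb10 at 48.2, 38.5 and 40.6 CPM, also overlapping (0.29 ± 0.28, 0.498). B2m had 0.11 ± 0.11 (0.487). With the correction these 3 were at 0.15, 0.26 and 0.093 (adjusted p = 0.162, 0.182 and 0.279).

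In KO cells with anti-CD3, Psme2 rose from 185 ± 12.4 to 237 ± 20.5 CPM (0.36 ± 0.086, adjusted p = 0.00346). Psmb9 had 0.10 ± 0.13 (0.57), Tap1 0.13 ± 0.15 (0.531) and Nlrc5 -0.049 ± 0.11 (0.765). Before stimulation these 3 were at 115 ± 13.7, 306 ± 34.3 and 636 ± 90.0 CPM in KO, and with anti-CD3 they were at 120.2, 311 and 651 CPM in WT. From GC-corrected levels, every unstimulated KO library lay below every WT library with anti-CD3 in all 3 genes. Psmb9 was then at 90.0 to 114 against 128 to 132 CPM, Tap1 at 235 to 272 against 340 to 358, and Nlrc5 at 500 to 639 against 661 to 708. No test compared these groups. Psmb8 and Psmb10 lay below the unstimulated KO libraries in every anti-CD3 library, at -0.21 ± 0.13 and -0.56 ± 0.27, without a call (adjusted p = 0.21 and 0.125). With the GC correction Tap1 (0.29 ± 0.065, 0.00094), Tapbp (0.37 ± 0.059, 2.86e-05) and Psme2 (0.40 ± 0.09, 0.00116) were called higher (20.2% of genes), and Psmb10 lower (23.6% of genes; -0.37 ± 0.14, 0.0416). Without KO replicate 3 of the both-antibody group, 1 member was called lower in the uncorrected fit.

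WT cells with both antibodies had 9 of the 10 members called higher than unstimulated cells, all but B2m (against 17.8% of genes called higher and 16.3% lower). Tap2 had the largest response, from 65.5 ± 10.8 to 228 ± 6.60 CPM (n = 3 and 2; 1.80 ± 0.31, adjusted p = 0.000738), and with the GC correction 1.29 ± 0.15 (1.36e-05). Psmb10 had 1.23 ± 0.30 (0.00734), Tap1 1.22 ± 0.16 (3.21e-05), Tapbp 1.20 ± 0.16 (2.9e-05) and Psmb9 1.11 ± 0.14 (2.72e-05). These 4 were 0.77, 0.82, 0.66 and 0.83 with the correction, all still called (15.2% of genes called higher, 17.5% lower). Nlrc5 (0.67 ± 0.13, 0.000815) and Psmb8 (0.41 ± 0.14, 0.032) also kept their calls with the correction, while Psme1 and Psme2 did not (0.39 and 0.40 uncorrected, -0.056 and 0.21 corrected). The call of Psmb8 was lost without WT unstimulated replicate 1 or without either both-antibody library, and that of Psme1 without replicate 3 of both antibodies.

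In KO cells both antibodies gave a mixed response: Psme2 and B2m rose, at 0.30 ± 0.086 and 0.32 ± 0.11 (adjusted p = 0.00994 and 0.0228; 23% of genes were called higher), while Psmb8 and Psmb10 fell (22.5% were called lower). Psmb8 went from 279, 299 and 277 CPM to 251, 209 and 162 CPM, with every stimulated library below every unstimulated one (-0.46 ± 0.13, adjusted p = 0.0077; -0.27 ± 0.08 and 0.00952 corrected). Psmb10 went from 88.9, 103 and 66.2 to 63.6, 42.9 and 22.1 CPM (-1.01 ± 0.28, adjusted p = 0.0092; -0.58 ± 0.14 and 0.00324 corrected). These 2 subunits were therefore called lower after stimulation of KO cells with and without the correction. B2m lost its call with the correction (-0.086 ± 0.064, 0.29) and without KO unstimulated replicate 2 or KO both-antibody replicate 2 or 3, and Psme1, Tap1 and Tapbp were called higher with it (0.54, 0.36 and 0.48; 21.2% of genes called higher, 22.7% lower). When the libraries with the lowest and highest GC trend were left out (KO both antibodies replicate 3 and KO unstimulated replicate 2), no member was called in KO cells; Psmb8 had -0.29 ± 0.11 (0.0577) and Psmb10 -0.56 ± 0.21 (0.0644).

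**Figure D3:**
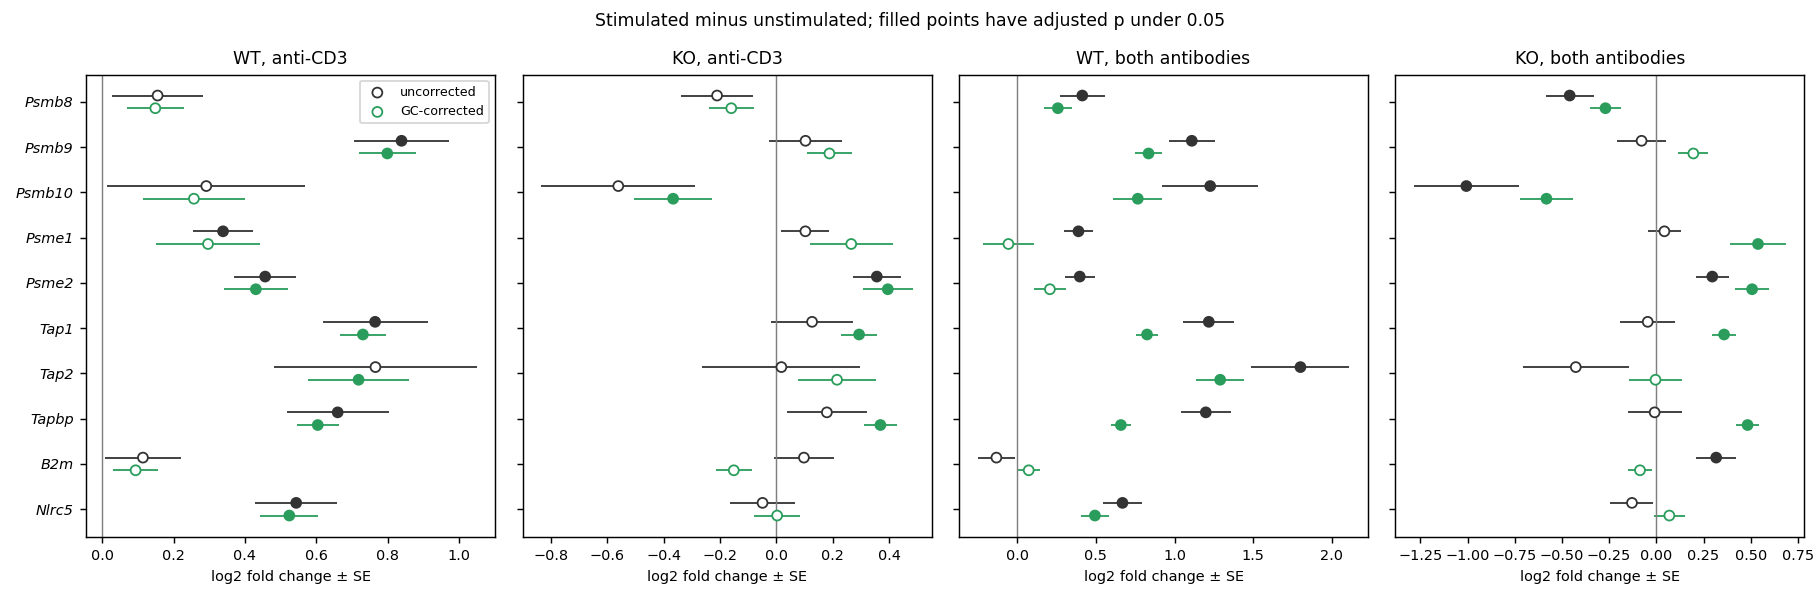
Log2 fold change ± SE (x axes) of the 10 members in each stimulated group against unstimulated cells of the same genotype, uncorrected (black) and GC-corrected (green), with filled points where the adjusted p was under 0.05. In WT cells 6 black points with anti-CD3 and 9 with both antibodies are filled on the right, and in KO cells the filled black points are Psme2 with anti-CD3 and, with both antibodies, Psme2 and B2m on the right and Psmb8 and Psmb10 on the left.

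Adding anti-CD28 to anti-CD3 gave no called gene at all in either genotype (0% of genes tested), and none of the members. At an unadjusted p under 0.05 there were 2134 genes higher and 1372 lower in WT, among them 4 members higher and 0 lower, and 434 and 1026 in KO, with 0 members. In WT cells Tap2 was at 130.1, 103 and 101 CPM with anti-CD3 and 223 and 232 CPM with both antibodies, without overlap (1.03 ± 0.31, adjusted p = 0.149; 0.57 ± 0.15 and 0.194 corrected, where 0.0185% of genes were called higher and 0.0123% lower). Psmb10 was at 48.2, 38.5 and 40.6 and 81.3 and 80.7 CPM (0.93 ± 0.30, adjusted p = 0.157; 0.51 ± 0.15 and 0.226 corrected). Other fits gave other counts for this comparison, and the cause was not tested: DESeq2 called 3 members higher in WT, limma voom 6 higher and 1 lower, a fit of these 2 WT groups alone 6 higher and 1 lower, and 4 were called higher without KO replicate 1 or 3 of the both-antibody group. Over all genes in WT, DESeq2 called 398 higher and 133 lower, limma voom 3213 and 2845, and the fit of the 2 WT groups alone 2551 and 2229. It was 913 and 274 genes without KO both-antibody replicate 1, and 1117 and 317 without replicate 3. In KO cells DESeq2 called 0 genes and limma voom 2250 higher and 3300 lower, among them 1 member higher and 6 lower. Without KO both-antibody replicate 1, 1 member was called lower in KO cells, against 44 genes higher and 584 lower.

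Whether the genotypes responded differently was tested directly as an interaction, the KO response minus the WT response. For anti-CD3 no member was called (against 0.0492% of genes called higher and 0.00616% lower). At an unadjusted p under 0.05 there were 0 members higher and 5 lower, against 1570 and 829 of all genes. DESeq2 called 2 members lower and limma voom 5, with their shares of all genes not given here. The values were negative for all 10 members, for example -0.74 ± 0.19 for Psmb9 (0.142), -0.64 ± 0.21 for Tap1 (0.203) and -0.59 ± 0.16 for Nlrc5 (0.162). After correction these 3 were called (against 1.08% of genes called lower and 1.2% higher): Psmb9 at -0.61 ± 0.11 (0.0108), Tap1 at -0.44 ± 0.092 (0.0197) and Nlrc5 at -0.52 ± 0.11 (0.024). Without KO replicate 1 or 3 of the both-antibody group, 3 members were called lower as well.

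For both antibodies the interaction was called as lower for 8 members, all but Psme2 and B2m, against 19.2% of genes called lower and 18.3% higher. It was -2.23 ± 0.41 for Psmb10 (adjusted p = 0.00371), -2.23 ± 0.42 for Tap2 (0.00375), -1.26 ± 0.22 for Tap1 (0.00339), -1.21 ± 0.21 for Tapbp (0.00339) and -1.19 ± 0.20 for Psmb9 (0.00339). After correction 6 passed (against 7.15% of genes lower and 8.46% higher): Psmb10 at -1.35 ± 0.21, Tap2 at -1.29 ± 0.21, Psmb9 at -0.64 ± 0.12, Psmb8 at -0.53 ± 0.12, Tap1 at -0.47 ± 0.098 and Nlrc5 at -0.42 ± 0.12 (adjusted p 0.00238 to 0.0222). The responses of the transporter and catalytic subunit genes were therefore lower in KO than in WT cells with and without the correction. Tapbp, with -0.18 ± 0.088 (0.19), and Psme1, with 0.59 ± 0.22 (0.0856), did not pass with the correction, and for Psme1 the sign turned from -0.35 ± 0.13 (0.0415), a call that was also lost without WT unstimulated replicate 1 or 3, KO unstimulated replicate 2, WT anti-CD3 replicate 2, KO anti-CD3 replicate 1, either WT both-antibody library, or KO both-antibody replicate 1 or 2. B2m had 0.45 ± 0.16 (0.0364), its call was lost without WT unstimulated replicate 1 or 3, KO unstimulated replicate 2, either WT both-antibody library, or KO both-antibody replicate 2 or 3, and with the correction it was -0.16 ± 0.096 (0.285). The interaction for added anti-CD28 called no member (against 0% of genes called higher and 0.00616% lower, or 0.0369% and 0.0554% corrected). At an unadjusted p under 0.05 there were 1 member higher and 6 lower, against 1859 and 2782 of all genes. DESeq2 called 1 and 4 members, limma voom 1 and 7, and edgeR 1 and 6 without KO both-antibody replicate 1. Without KO unstimulated replicate 2, edgeR called 1 and 1. The shares of all genes in these other fits are not given here.

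A ratio of each immunoproteasome subunit to the constitutive subunit whose place it takes does not depend on library scaling. Counts per kilobase of exon were divided, with 0.5 count added to each. The level of a ratio depends on these exon lengths, which are the same in every library, while a log2 difference between groups does not. For Psmb8 to Psmb5 the ratio was 2.35, 2.29 and 2.13 in WT and 2.19, 2.38 and 2.73 in KO unstimulated cells, with overlap. The log2 difference was 0.10, and from GC-corrected levels it was 0.41, with every KO library above every WT library. With anti-CD3 the ratio was 1.65, 1.73 and 1.74 in WT and 1.44, 1.25 and 1.23 in KO, and with both antibodies 1.80 and 1.83 against 1.47, 1.29 and 1.40. KO lay below WT cells without overlap in both stimulated states, by a log2 difference of -0.39 with anti-CD3 (-0.24 corrected) and -0.39 with both antibodies (-0.70 corrected). Against unstimulated cells, anti-CD3 went with a lower ratio in WT (-0.40, or -0.37 corrected) and in KO (-0.89, or -1.02). Both antibodies did so in KO (-0.81, or -1.10), while in WT the difference of -0.31 became 0.012 with overlap from corrected levels.

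For Psmb9 to Psmb6 the genotypes went in opposite directions with anti-CD3. The ratio was 0.861, 0.829 and 0.929 in unstimulated WT and 1.15, 1.17 and 1.26 in stimulated WT libraries, all of the latter higher. In KO it was 0.899, 0.988 and 1.27 before and 0.849, 0.783 and 0.642 after anti-CD3, all of the latter lower. The log2 differences were 0.45 in WT and -0.47 in KO, and 0.38 and -0.45 from corrected levels. With anti-CD3 Psmb6 was higher in KO than in WT cells (0.71 ± 0.12, adjusted p = 0.000909; 0.58 ± 0.082 and 8.13e-05 corrected), as was Psmb5 (0.68 ± 0.15, 0.00553; 0.35 ± 0.088 and 0.00629 corrected), while Psmb9 had the values given above. With both antibodies the ratio was 1.18 and 1.21 in WT and 0.940, 0.846 and 0.726 in KO, without overlap (log2 difference -0.52, or -0.37 corrected). In that state Psmb6 had 0.097 ± 0.13 (0.657; 0.17 ± 0.093 and 0.209 corrected) and Psmb9 -0.41 ± 0.15 (0.0636; -0.20 ± 0.088 and 0.131 corrected), and neither was called.

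For Psmb10 to Psmb7, a GC-rich gene over one of 40.8% GC, the ratio was 0.810, 1.36 and 1.28 in WT and 2.92, 3.66 and 2.19 in KO unstimulated cells. With both antibodies it was 2.76 and 2.70 in WT and ranged over 1.86, 0.882 and 0.362 in KO. The log2 difference between genotypes was 1.35 unstimulated (0.49 from corrected levels) and -1.70 with both antibodies (-0.98 corrected), without overlap in either state. With anti-CD3 it was 0.11 with overlap, and -0.29 with every KO library below every WT library from corrected levels. Over the 27 differences of ratios, the exact two-sided permutation test gave p = 0.10 at the lowest, the smallest that 3 against 3 libraries allow, and an adjusted p of 0.27, so no difference of a ratio could pass.

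**Figure D4:**
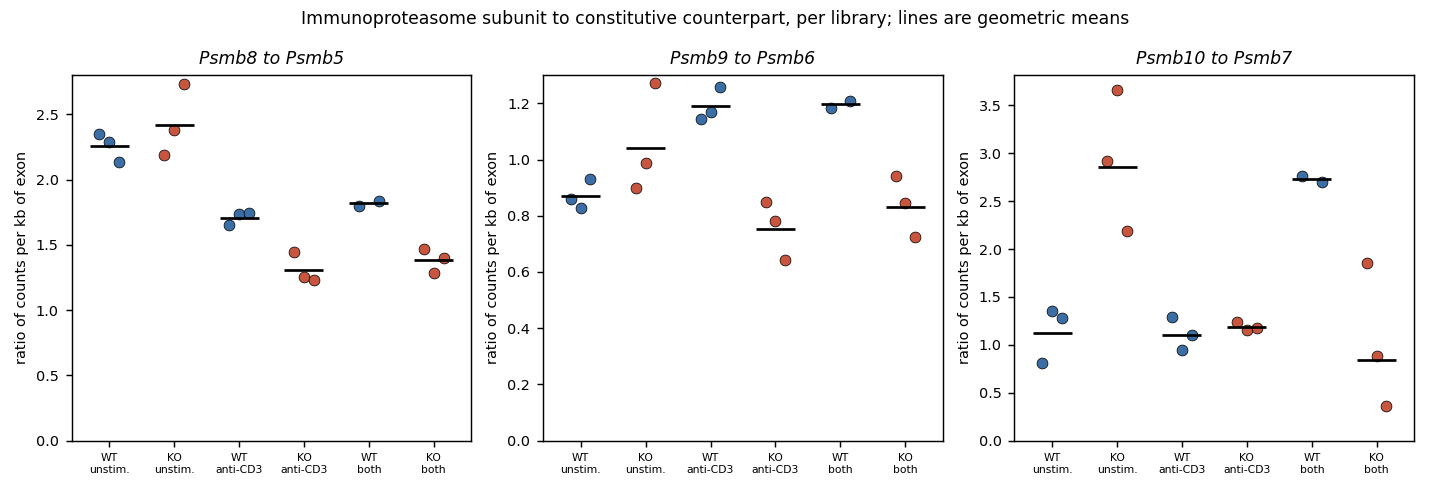
Ratio of each immunoproteasome subunit to its constitutive counterpart (counts per kilobase of exon, linear axis from 0) in every library, with the geometric mean of each group as a line, WT in blue and KO in red. For Psmb9 to Psmb6 the WT points with anti-CD3 (1.15 to 1.26) lie above the unstimulated ones, and the KO points (0.642 to 0.849) below.

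The rest of the pathway was read in lists that hold none of the members. Of 10 MHC class I heavy chain genes, 8 were higher and 1 lower in unstimulated KO cells (median 0.41), against 15.3% and 10.1% of all genes, and with the GC correction 2 were higher and 1 lower, against 3.43% and 3.02%. H2-T23 was higher by 0.73 (adjusted p = 0.00848; 0.38 and 0.0175 corrected). The classical heavy chain H2-K1 was at 1360.2, 1567 and 1661 CPM in WT and 2143, 2399.6 and 1847 CPM in KO (0.48 ± 0.12, 0.0126; 0.12 ± 0.063 and 0.279 corrected), and H2-D1 had 0.54 ± 0.16 (0.0214; 0.048 ± 0.067 and 0.73 corrected). With anti-CD3 the heavy chains had 0 higher and 2 lower in KO (Cd1d1 and Mr1, which present lipids and vitamin B metabolites), against 10.5% and 4.8% of all genes, and 0 higher and 3 lower with the correction. H2-K1 and H2-D1 were not called in that state (0.18 and 0.18, or -0.039 and -0.094 corrected). Near-identical class I genes share reads, so values of single heavy chains are uncertain.

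Of 10 chaperones and peptide editors of class I assembly, 2 were higher and 1 lower in unstimulated KO cells, a share close to the 15.3% and 10.1% of all genes, and 0 were called with the correction. With anti-CD3, 3 were higher and 1 lower in KO, or 5 and 1 corrected, against 10.5% and 4.8% of all genes, or 10.8% and 11.6% corrected. Among them were Hspa5 (0.72, adjusted p = 0.00857; 0.72 and 0.00186 corrected) and Calr (0.41, 0.0142; 0.32 and 0.017 corrected), general chaperones of the endoplasmic reticulum. With both antibodies 6 were higher and 0 lower, or 7 and 0 corrected, against 9.84% and 6.3% of all genes, or 9.95% and 7.69% corrected. Canx, the lectin chaperone calnexin, was one of these (0.84, 0.00553; 0.55 and 0.00097 corrected).

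Of 8 other proteasome activators, inhibitors and assembly factors, 0 were higher and 1 lower in unstimulated KO cells (0 and 0 corrected). With anti-CD3, 5 were higher and 0 lower, or 3 and 0 corrected, and with both antibodies 5 and 0, or 5 and 1 corrected, against the same shares of all genes as above. Psmg2, an assembly chaperone, was higher with anti-CD3 (0.74, adjusted p = 0.00333; 0.72 and 0.000309 corrected), and Psme3, the nuclear PA28 gamma, with both antibodies (0.64, 0.00608; 0.62 and 0.00192 corrected).

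A list of 9 transcription factor genes held 8 RFX, CREB, ATF and NF-Y genes and Ciita, the class II counterpart of Nlrc5. In unstimulated KO cells 1 of the 9 was higher, Rfx5 (0.45, adjusted p = 0.00728; 0.41 and 0.00777 corrected), and 1 was lower, Creb1 (-0.43, 0.012; -0.068 and 0.531 corrected). These shares are near the 15.3% and 10.1% of all genes. Irf1, which binds interferon response elements, rose by 1.31 ± 0.11 in WT (1.11e-07) and by 0.64 ± 0.11 in KO (0.000152) with anti-CD3 (1.29 and 0.68 corrected), and the interaction was -0.67 ± 0.15 (0.0977; -0.60 ± 0.11 and 0.0108 corrected). Ifng itself was low and uncalled between unstimulated groups, at 6.64, 8.93 and 10.2 CPM in WT and 6.18, 7.24 and 7.76 CPM in KO (-0.27 ± 0.34, 0.585; 0.015 ± 0.35 and 0.986 corrected).

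Over the 6 group means of log2 CPM, the genes outside the members most like their mean standardized profile, among the 7152 genes whose log2 CPM averaged 4 or more, were Stat3 (Pearson's r = 0.978), Pml (0.978), Rhno1 (0.977), Naxd (0.974) and Ifi27l2a (0.973). This is a description over 6 points that share libraries, depth and the GC trend, and 4 of the 5 genes are of more than 52% GC. Among the members, Psmb9 ranked first with r = 0.988 and Tap1 had 0.975, while B2m had -0.333. Each member is itself part of the mean profile, which favours a high r for members. The plot of levels against the GC trend shows how closely single members went with it.

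**Figure D5:**
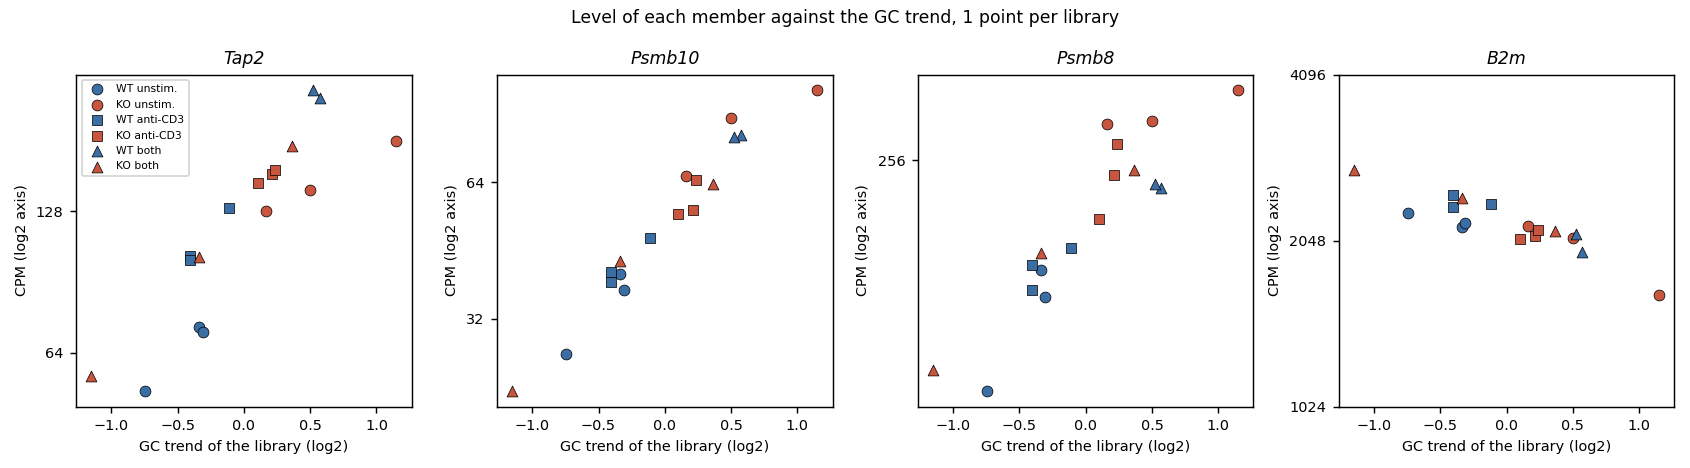
Level of Tap2, Psmb10, Psmb8 and B2m (CPM, log2 axes) in each of the 17 libraries against the library's GC trend (log2), WT in blue and KO in red. Tap2 and Psmb10 lie higher in libraries of higher trend, within the KO both-antibody group from 57.1 CPM of Tap2 at -1.15 to 177 CPM at 0.36, and B2m lies lower.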

How the data were processed

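RNA of 17 libraries in 6 groups was analysed from the deposited tables of whole-number read counts per gene. The authors used a stranded total RNA kit after removal of ribosomal RNA with paired-end reads, per the labels' protocols, and STAR 2.5.2, RSEM 1.3.0 and the GRCm38 (mm10) build are named, per the submitters' processing notes. The annotation release, the strand setting and how counts were rounded are not given in sources used here. Of 53679 genes, 53650 matched the GENCODE M21 annotation, which gave coordinates, exon lengths and GC content.

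The main test was edgeR 4.0.16 (R 4.3.3): filterByExpr by group, TMM scaling, 1 coefficient per group over all 17 libraries, a robust quasi-likelihood F test and Benjamini-Hochberg adjustment over the 16246 genes tested in each of 12 contrasts, with a threshold of 0.05. The common biological coefficient of variation was 0.153. CPM was computed from the TMM-scaled library sizes. The GC correction subtracted a loess curve (span 0.3) of each library's log2 deviation on exon GC content, entered as offsets; a GC value existed for 99.9% of the genes tested, and the trend measure used 1516 GC-rich and 670 GC-poor genes. Ratios were tested by exact permutation (scipy 1.17.1). The alternatives, with limma 3.58.1 and DESeq2 1.42.0 among them, were 27 for fold changes; the GC correction without the extreme libraries and the GC-corrected ratios were chosen after seeing the data. The script was tested on simulated data. Same-numbered libraries did not deviate together (11 of 40 pairs had a correlation over 0.1, from -0.49 to 0.63), so the numbers were not taken as pairs.

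The members and lists were chosen with earlier results of these data known. Named genes were the members, their counterparts, 5 reference genes (H2-K1, H2-D1, Irf1, Ifng and Cblb; 1 further gene is not reported here), up to 3 called genes of each list per direction and contrast by smallest adjusted p, and the 5 genes of most similar profile.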

Additional observations from a re-analysis of the deposited data

Results flagged for a closer look

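The responses to stimulation of 14 genes differed between the genotypes by a test of the difference itself (edgeR interaction term, KO response minus WT response, adjusted p under 0.05). They are all among the members, their constitutive counterparts and the reference genes. Over all genes tested, the both-antibody interaction was called lower for 19.2% and higher for 18.3%. For both antibodies against unstimulated cells, the interaction was -0.87 for Psmb8, -1.19 for Psmb9, -2.23 for Psmb10 and -0.35 for Psme1. It was -1.26 for Tap1, -2.23 for Tap2, -1.21 for Tapbp, -0.80 for Nlrc5 and 0.45 for B2m. Outside the members it was 0.74 for Psmb7, -0.81 for H2-K1, -0.99 for H2-D1, -0.82 for Irf1 and 3.14 for Ifng. All are log2 values, and those of Psme1, Tapbp, B2m, Psmb7, H2-K1 and H2-D1 were not called with the GC correction.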

How the results depend on the processing

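Of 3240 recomputed fold changes of the members over 27 alternatives, 2976 kept their direction and side of the threshold, 88 lost the threshold, 157 gained it and 19 turned sign. Except where a value itself shows it, the cause of a change was not tested. Counts below are of members, higher and lower, without the share of all genes called under each alternative. The number of all genes called also differed between fits. For added anti-CD28 in WT it was 0 higher and 0 lower in the main fit. DESeq2 gave 398 and 133 genes there, and limma voom 3213 and 2845. A changed count of members is therefore not by itself evidence of a change particular to the members.

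With the GC correction, KO against WT had 5 higher in unstimulated cells and 2 lower with anti-CD3. With both antibodies it had 1 higher, and Psmb10 and Tap2 lower. KO cells had 3 higher and 1 lower with anti-CD3, and with both antibodies 4 higher, and Psmb8 and Psmb10 lower. The interaction had 3 lower for anti-CD3. For both antibodies it had 0 higher, and Psmb8, Psmb9, Psmb10, Tap1, Tap2 and Nlrc5 lower. With the correction and without the 2 libraries at the ends of the GC trend, KO against WT had 5 higher in unstimulated cells, 3 lower with anti-CD3 and 1 higher with both antibodies. KO cells then had 3 higher and 3 lower with anti-CD3 and 4 higher with both antibodies, and 2 were higher on added anti-CD28 in WT. The interaction then had 4 lower for anti-CD3, and 0 higher and 5 lower for both antibodies. Without those 2 libraries uncorrected, there was 1 lower with anti-CD3 and 1 lower with both antibodies between genotypes, 0 and 0 for both antibodies in KO, 4 and 1 for anti-CD28 in WT, 2 lower for the anti-CD3 interaction, 0 higher for the both-antibody one, and 1 and 3 for the anti-CD28 one.

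DESeq2 gave 1 higher and 5 lower between genotypes with both antibodies, 3 higher for anti-CD28 in WT, 2 lower for the anti-CD3 interaction, and 1 and 4 for the anti-CD28 one. Limma voom gave 4 and 1 between genotypes with anti-CD3, 2 and 7 with both antibodies, 3 and 2 for anti-CD3 in KO, 6 and 1 for anti-CD28 in WT, 1 and 6 in KO, 5 lower for the anti-CD3 interaction, and 1 and 7 for the anti-CD28 one. Fits of the compared groups gave 4 and 1 between genotypes with anti-CD3, 0 lower with both antibodies, 1 lower for anti-CD3 in KO, 0 and 0 for both antibodies in KO, 6 and 1 for anti-CD28 in WT, 5 lower for the anti-CD3 interaction and 0 higher for the both-antibody one. With no filter on low counts the interactions had 1 lower for anti-CD3 and 0 higher for both antibodies.

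Leaving out 1 library at a time, members higher between genotypes were 4 to 9 unstimulated, 0 to 2 with anti-CD3 and 0 to 2 with both antibodies, where 0 to 7 were lower. In KO cells 0 to 1 were lower for anti-CD3, and 1 to 2 higher and 2 to 3 lower for both antibodies. For anti-CD28, 0 to 4 were higher in WT and 0 to 1 lower in KO. The interactions had 0 to 3 lower for anti-CD3, 0 to 1 higher for both antibodies, and 0 to 1 higher and 0 to 6 lower for anti-CD28.

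The following signs turned with the GC correction, for values called in the main or the corrected fit. They are given first with all libraries and then without the 2 extremes. In unstimulated KO against WT cells Psme1 had -0.098 and -0.012. With anti-CD3 Tapbp had -0.19 and -0.19, and Tap1 -0.17 without the extremes. For both antibodies in WT, Psme1 had -0.056 and -0.060. For both antibodies in KO, Tap1 had 0.36 and 0.39, Tapbp 0.48 and 0.42, B2m -0.086 and -0.096, and Psmb9 0.24 without the extremes; B2m had -0.18 for anti-CD3 in KO without them. For the both-antibody interaction Psme1 had 0.59 and 0.29, B2m -0.16 and -0.17, and Psmb5 0.57 and 0.49.

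A replicate block gave 4 members lower between genotypes with both antibodies and 7 lower for the both-antibody interaction. Of 234 recomputed ratios, 14 moved beyond the spread between libraries, all from GC-corrected levels.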
